A study of Mus musculus with 6 samples.

Results

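A group of 10 immediate early genes was followed in fibroblasts sorted from mouse synovium, the tissue that lines joints. They are the zinc finger factors Egr1, Egr2 and Egr3, the orphan nuclear receptors Nr4a1, Nr4a2 and Nr4a3, the regulator Ier2, the growth factor-responsive gene Myc, and the Krüppel-like factors Klf2 and Klf4. They were chosen by symbol, and all 10 were found among the 24348 genes of the count table. All 10 also passed the count filter that left 19925 genes for testing. The table holds 6 libraries, 3 from adult C57BL/6 wild-type mice that received intravenous immune complexes (IC), that is, antigen with antibody attached to it, and 3 from vehicle-injected mice. The study made its IC in vitro from ovalbumin and rabbit antiserum to ovalbumin. Both groups were wild type, and both went through the same collagenase digestion of the dissected synovium and cell sorting before RNA extraction. The sorting gate, the interval between injection and dissection and the number of mice in each library are not given in the sources used here for these libraries. The p-values set the difference between groups against the spread between libraries. That spread may be partly technical and may not capture the variation between mice.

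Immediate early genes are transcribed within minutes of a stimulus, without new protein synthesis, and most of their transcripts are short-lived. Growth factors, cytokines, calcium, cAMP and mechanical stress reach them through kinases that act on factors already bound near their start sites, among them serum response factor (SRF) with its Elk partners, CREB and MEF2. The proteins they encode are mostly transcription factors that go on to set a later wave of genes. In fibroblasts the Egr factors are known for responses to serum and wounding, the Nr4a receptors for responses to cAMP and inflammatory mediators, and Myc for growth and ribosome production. Taking tissue apart with enzymes is also known to switch on these genes, and its part in the levels given here was not tested.

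Total counts ranged from 40114331 to 56714304 per library and overlapped between groups. The labelled cell type was borne out by its markers, since Col1a1, Col1a2, Dcn and Pdgfra were high in every library and the 10 fibroblast markers together held 31700 to 38270 CPM, the counts scaled to a fixed library total. Vehicle replicate 1 stood apart in that 0.963% of its counts fell on Gm42418, a gene overlapping a ribosomal RNA repeat, against 0.375% to 0.553% elsewhere, and none of the 3 calls among the 10 genes was lost without it. Markers of other cell types were present at low levels. Endothelial markers summed to 139.8 to 193.1 CPM after IC and 188.4 to 248 CPM after vehicle. Skeletal muscle markers summed to 21.1 to 40.4 CPM and 36.8 to 82.7 CPM, and like the endothelial sums these overlapped between groups at 1 end. Satellite cell markers, at 52.4 to 90.4 CPM after IC and 116.4 to 167 CPM after vehicle, were lower in every IC library. Chondrocyte markers summed to 679 to 773 CPM and 429 to 647 CPM, higher in every IC library, but most of that sum was Comp, which was not called (log2 fold change 0.39, DESeq2 adjusted p 0.577). Macrophage (31.5 to 50.3 CPM over all 6 libraries), Schwann cell (30.95 to 112.4 CPM) and mural cell (293.5 to 370.1 CPM) markers overlapped between groups. Most of the mural sum was Cspg4 and Abcc9, and of the 7 mural markers 2 had a log2 fold change above 0. Myh11 was called lower (-0.96, DESeq2 adjusted p 0.0131) and Acta2 was not called (-0.62, 0.0954). In a bulk library fewer cells of a type and less RNA per cell cannot be told apart.

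The 10 genes were very highly expressed in both groups, and together took 0.888% to 0.978% of all counts in each library. Levels were compared between genes as TPM, which divides counts by exon length and scales each library to the same total. Egr1 led with 3827 ± 141 TPM after IC and 3958 ± 382 TPM after vehicle (SD, n = 3 each), and ranked 17 among 23890 genes with a length. Klf4 followed with 2649 ± 36.9 and 2354 ± 59 TPM, and Nr4a1 with 2124 ± 18.7 and 1737 ± 88.9 TPM. These leading genes did not overlap with each other in any of the 6 libraries.

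Ier2 had 1496 ± 74.1 TPM after IC and 1461 ± 159 TPM after vehicle, and Klf2 had 1139 ± 126 and 1264 ± 84.1 TPM, so their ranges over the 6 libraries overlapped. Myc had 429 ± 23.5 and 338 ± 12.8 TPM. Nr4a2 had 348 ± 18.9 and 209.5 ± 39.1 TPM, overlapping with Myc above it and with Egr2 below it, which had 194.7 ± 5.29 and 209 ± 3.82 TPM. In the vehicle libraries Nr4a2 ran from 168 to 246 TPM, on both sides of the Egr2 values, and in the IC libraries it ran from 328 to 366 TPM, above all of them. Egr3 (117 ± 12.7 and 129 ± 20.4 TPM) and Nr4a3 (112 ± 3.47 and 105.5 ± 6.8 TPM) were the lowest of the 10 and overlapped with each other. Nr4a3, at rank 1362 of the 23890 genes, was still well above the floor of the assay.

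**Figure D1:**
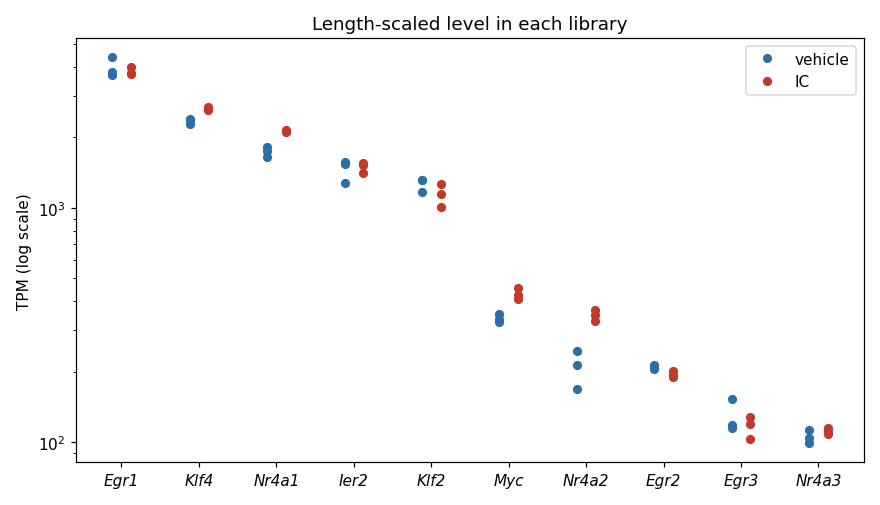
Level of each gene in TPM on a log axis, with 1 point per library (blue, vehicle; red, IC), ordered by the mean over 6 libraries. The genes run from Egr1 at 3673 to 4392 TPM to Nr4a3 at 99.2 to 114.7 TPM, and the IC and vehicle points separate most for Nr4a2.

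Coordinates are those of GENCODE M21 on GRCm38, the assembly that the authors' mm10 names. Egr2 lies on chromosome 10 (67535475 to 67542188), Egr3 on chromosome 14 (70077203 to 70082614), Nr4a1 on chromosome 15 (101254269 to 101274795) and Nr4a2 on chromosome 2 (57106830 to 57124003). Nr4a3 (48045153 to 48086447) and Klf4 (55527143 to 55532466) share chromosome 4, Ier2 (84661331 to 84662852) and Klf2 (72319033 to 72321656) share chromosome 8, and Myc lies on chromosome 15 (61985391 to 61990374). Egr1 spans 34859823 to 34864984 on chromosome 18. All 10 are protein-coding, and no exon of theirs overlaps an exon of another annotated gene on either strand. At a length of 50 bases, 8 of the 10 share no stretch with transcripts of any other gene. Nr4a3 shares 0.15% of its 50-base stretches and Klf4 0.263%. The paralogs thus share no such stretch with each other.

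The comparison of IC with vehicle addressed the response of synovial fibroblasts to circulating IC. Nr4a2, Myc and Nr4a1 rose after IC, by 63.8%, 25.1% and 20.6%, while no Egr gene, Ier2, Nr4a3 or Klf gene passed the test. DESeq2 called 3 of the 10 genes at an adjusted p under 0.05, all higher after IC. Over all tested genes it called 2.1%, of which 1.03% higher and 1.07% lower after IC. High counts make small changes easier to call, and of the 1840 genes whose normalized counts averaged 5000 or more, which include all 10, 6.47% were called. That level was chosen after the values were seen. The quasi-likelihood test of edgeR called 0.186% of all tested genes and none of the 10, of which 3 had an unadjusted p under 0.05 by edgeR. The share of all tested genes under that unadjusted level is not given here, so counts at that level have no background to be set against. Another tool, limma-voom, called Nr4a2 alone, so the calls of Nr4a1 and Myc rest on DESeq2 alone.

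The 3 IC values lay wholly above the 3 vehicle values for 4 genes, Nr4a1, Nr4a2, Myc and Klf4, and wholly below them for 1 gene, Egr2. Over all tested genes the groups did not overlap for 15.8%, of which 8.09% were higher and 7.67% lower after IC. Among the genes with a mean of at least 5000 that share was 24.7%. The median log2 fold change of the 10 genes was 0.04, and that of all tested genes was -0.0019.

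**Figure D2:**
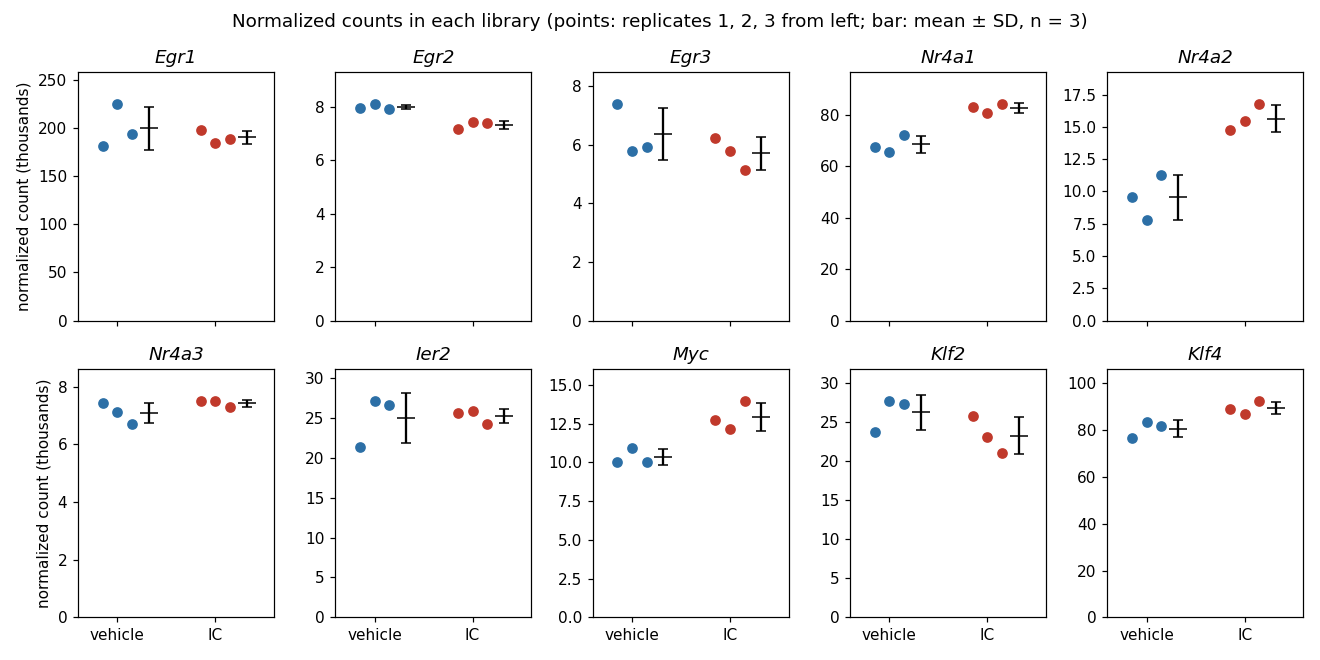
Normalized counts, scaled as the axis label states, of each gene in each library, with replicates 1, 2 and 3 from left to right in each group (blue, vehicle; red, IC) and the mean ± SD beside them, on axes that start at 0. The IC points lie above all vehicle points for Nr4a1, Nr4a2, Myc and Klf4, below them for Egr2, and overlap them for the other genes.

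The Nr4a genes encode orphan nuclear receptors, which act without a known hormone and are controlled mainly through how much of them is made. The 3 genes are classical targets of cAMP and CREB. The 250 bases before the RefSeq start site (GRCm38.p6) are shown for all 3, because the family shares a feature in sequence, while Nr4a1 and Nr4a2 were called after IC and Nr4a3 was not. Capitals mark the core of the cAMP response element, TGACG, on either strand.

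Nr4a1, chr15:101266596-101266845, plus strand: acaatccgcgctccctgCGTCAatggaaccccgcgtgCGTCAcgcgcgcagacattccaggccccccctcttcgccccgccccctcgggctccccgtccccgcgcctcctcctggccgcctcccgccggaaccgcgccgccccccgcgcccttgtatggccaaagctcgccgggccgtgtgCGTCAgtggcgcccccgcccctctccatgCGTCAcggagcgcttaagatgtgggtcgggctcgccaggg
Nr4a2, chr2:57124004-57124253, minus strand: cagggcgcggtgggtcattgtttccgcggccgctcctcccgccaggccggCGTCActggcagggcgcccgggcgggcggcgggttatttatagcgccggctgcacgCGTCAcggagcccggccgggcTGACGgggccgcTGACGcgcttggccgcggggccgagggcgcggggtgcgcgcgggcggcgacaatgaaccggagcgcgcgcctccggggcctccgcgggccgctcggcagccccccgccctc
Nr4a3, chr4:48045055-48045304, plus strand: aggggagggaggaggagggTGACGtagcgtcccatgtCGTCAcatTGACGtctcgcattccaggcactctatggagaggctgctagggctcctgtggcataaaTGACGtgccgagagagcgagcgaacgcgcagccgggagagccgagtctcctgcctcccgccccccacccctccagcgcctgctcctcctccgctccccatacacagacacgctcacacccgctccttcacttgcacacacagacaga

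Each of the 3 windows holds 4 such core elements. A core element was present in 17.8% of the 32851 windows of this length in the table, and at least 4 were present in 0.137%. These shares cover windows of any GC content, while the 3 shown are 63.6% to 80% GC and were shown for this feature. The comparison is thus a description and not a test. None of the 3 holds the full element TGACGTCA, which 1.55% of windows do. The Nr4a1 window lies inside the annotated gene, before a start site downstream of the first. The Nr4a3 window, which ends at 48045304, also runs into its annotated gene, which starts at 48045153. The Nr4a1 and Nr4a2 windows each hold 1 match to the Egr site GCGNGGGCG, found in 4.7% of windows, and the Nr4a3 window holds none. The site does not follow the calls. Of the 6 genes of the group with a window, 4 hold it, among them Klf2 and Klf4, which were not called. A match is a description of letters and not of binding.

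Nr4a2 showed the largest fold change of the 10 genes. Its normalized counts were 14741, 15439 and 16752 in IC replicates 1, 2 and 3 and 9576, 7780 and 11298 in vehicle replicates 1, 2 and 3. Every IC library was higher than every vehicle library, and the vehicle libraries were the more spread. The log2 fold change was 0.71 ± 0.11 (SE), and its adjusted p was 2.77e-07 in DESeq2, 0.0537 in edgeR and 0.0284 in limma-voom. Without any 1 library DESeq2 still called it, at log2 fold changes from 0.59 to 0.85.

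Nr4a1, which is also induced by antigen receptors in lymphocytes, had 83129, 80555 and 84048 normalized counts after IC and 67606, 65653 and 72206 after vehicle. The groups were apart and the replicates tight, with a coefficient of variation of 2.19% after IC and 4.91% after vehicle. Its log2 fold change was 0.27 ± 0.07 (SE), and its adjusted p was 0.00637 in DESeq2 against 0.178 in edgeR. DESeq2 called it in all 6 fits without 1 library, at adjusted p from 0.00225 to 0.0483. Nr4a3 had 7500, 7490 and 7293 after IC and 7423, 7133 and 6725 after vehicle, and IC replicate 3 fell below vehicle replicate 1. Its log2 fold change was 0.07, with a 95% interval of -0.09 to 0.22 that excludes the fold change of Nr4a2, itself picked as the largest.

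The ratio of 2 counts within a library does not depend on how libraries are scaled. Nr4a2 over Nr4a1 was 0.177, 0.192 and 0.199 after IC and 0.142, 0.118 and 0.157 after vehicle, so Nr4a2 was higher relative to Nr4a1 in every IC library. Nr4a3 over Nr4a1 was 0.0868 to 0.0930 after IC and 0.0931 to 0.110 after vehicle, apart by a narrow margin. A total of 7 such ratios were compared by exact two-sided permutation over the libraries, which cannot give a p below 0.1 with 3 against 3. Both ratios gave that smallest value, or 0.175 after Benjamini-Hochberg adjustment over the 7 ratios, so the design cannot call them.

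Myc encodes the factor that pairs with Max to drive growth genes. Its normalized counts were 12719, 12132 and 13940 after IC and 10050, 10901 and 10046 after vehicle, with every IC library above every vehicle library. The log2 fold change was 0.32 ± 0.08 (SE), and its adjusted p was 0.00591 in DESeq2 against 0.135 in edgeR. DESeq2 called Myc in 5 of the 6 fits without 1 library. Without vehicle replicate 3 its adjusted p was 0.0834 and its log2 fold change 0.30.

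The Egr genes encode closely related zinc finger factors that bind GC-rich sites and induce their own corepressor Nab2. None of them passed the test. Egr1, the most abundant of the 10, had 197750, 184270 and 188270 normalized counts after IC and 181140, 224440 and 193380 after vehicle, and vehicle replicates 1 and 2 bracketed all other libraries. Its log2 fold change was -0.07, with a 95% interval of -0.24 to 0.10 (DESeq2 adjusted p 0.880). Without vehicle replicate 2, or with 1 surrogate variable in the fit, the value changed sign to 0.023 and 0.012.

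Egr2, which also directs myelination in Schwann cells, was the tightest gene of the family. It had 7149, 7433 and 7402 normalized counts after IC and 7969, 8091 and 7909 after vehicle. All 3 IC values lay below all 3 vehicle values, yet the log2 fold change was only -0.12, with a 95% interval of -0.27 to 0.02 (DESeq2 adjusted p 0.553). No Schwann cell marker was called. Egr3 had 6244, 5773 and 5127 after IC and 7384, 5794 and 5934 after vehicle. Only vehicle replicate 1 lay above every IC library, and the log2 fold change of -0.16 (95% interval -0.37 to 0.06, adjusted p 0.686 by DESeq2) moved to -0.04 without it.

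Egr2 over Egr1 (0.0361 to 0.0403 after IC, 0.0360 to 0.0440 after vehicle) and Egr3 over Egr1 (0.0272 to 0.0316 and 0.0258 to 0.0408) overlapped between groups. Nr4a2 over Egr1 did not overlap, with 0.0745 to 0.0890 after IC and 0.0347 to 0.0584 after vehicle. Its exact permutation p was the smallest possible, 0.1, or 0.175 after adjustment, so the design cannot call it. The upper limits of the 95% intervals for Egr1, Egr2 and Egr3 were 0.10, 0.02 and 0.06 on the log2 scale, each below the lower limit of 0.49 for Nr4a2. Nr4a2 was picked as the largest change in these same data, so this separation is partly built in.

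RefSeq lists 5 start sites for Egr2, and the window before the third in genome order is shown. It lies inside the annotated gene and holds the binding sequence of serum response factor, the CArG box, at bases -72 to -63 from the start site. Capitals mark that box and the TGACG core elements beside it. The box does not single out this window, since every Egr2 window but the first in genome order holds a CArG box. The windows from the third on overlap.

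Egr2, chr10:67537619-67537868, plus strand: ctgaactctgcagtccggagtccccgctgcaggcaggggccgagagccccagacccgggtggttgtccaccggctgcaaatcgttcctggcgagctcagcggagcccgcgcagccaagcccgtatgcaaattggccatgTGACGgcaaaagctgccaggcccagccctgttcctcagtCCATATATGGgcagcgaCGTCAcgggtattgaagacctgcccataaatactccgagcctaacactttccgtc

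A CArG box on either strand was found in 1.47% of all windows, a share per window, whereas Egr2 had several windows. Of the 6 genes with a window in the table, Egr2 alone held one, while all 6 held a TGACG core element in at least 1 window. Windows for Egr1, Egr3, Ier2 and Myc were not analysed here.

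Klf4 and Klf2 encode Krüppel-like factors, known for quiescence and barrier programmes and, in endothelium, for the response to blood flow. Neither passed the test, and their fold changes had opposite signs. Klf4 had 89075, 87040 and 92422 normalized counts after IC and 76735, 83460 and 81889 after vehicle, so the IC libraries lay above the vehicle libraries. Its log2 fold change was 0.15, with a 95% interval of 0.02 to 0.28 and an unadjusted p of 0.0285 (DESeq2 adjusted p 0.332). Klf2 had 25773, 23103 and 21015 after IC and 23713, 27712 and 27368 after vehicle. The groups overlapped through IC replicate 1 and vehicle replicate 1, and the log2 fold change was -0.17 (95% interval -0.35 to 0.01, adjusted p 0.485 by DESeq2).

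Klf2 over Klf4 was 0.227 to 0.289 after IC and 0.309 to 0.334 after vehicle, lower in every IC library, again with the smallest exact permutation p of 0.1. Klf2 is abundant in endothelium. DESeq2 called 1.07% of all tested genes lower, and of the 9 endothelial markers it called 3 lower. These were Kdr (log2 fold change -0.70, DESeq2 adjusted p 3.45e-05), Cdh5 (-0.74, 0.0496) and Cldn5 (-0.62, 0.0496). Only 1 of the 9 was called with total-count scaling, without independent filtering, with 1 surrogate variable or by limma-voom, 0 by edgeR, and 1 to 4 without 1 library. Ackr1, the 1 endothelial marker with a log2 fold change above 0, was higher in every IC library without being called (0.34, DESeq2 adjusted p 0.163). IC replicate 3 had the lowest endothelial sum, 139.8 CPM, and also the lowest Klf2 value, but vehicle replicate 1 had the highest sum, 248 CPM, with a Klf2 value inside the IC range. The part of these cells in the Klf2 values was not tested. The window before the Klf2 start site holds a MEF2 box, CTAAATTTAG, at bases -118 to -109, which 0.508% of windows do.

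Ier2, which encodes a nuclear protein induced by serum, did not pass the test. It had 25578, 25833 and 24243 normalized counts after IC and 21392, 27090 and 26578 after vehicle, so the vehicle libraries spanned the IC libraries. The log2 fold change was 0.01 (95% interval -0.17 to 0.19, adjusted p 0.992 by DESeq2), and it turned to -0.091 without vehicle replicate 1 and -0.0068 without IC replicate 2. Myc over Ier2 barely overlapped between groups, at 0.470 to 0.575 after IC and 0.378 to 0.470 after vehicle.

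**Figure D3:**
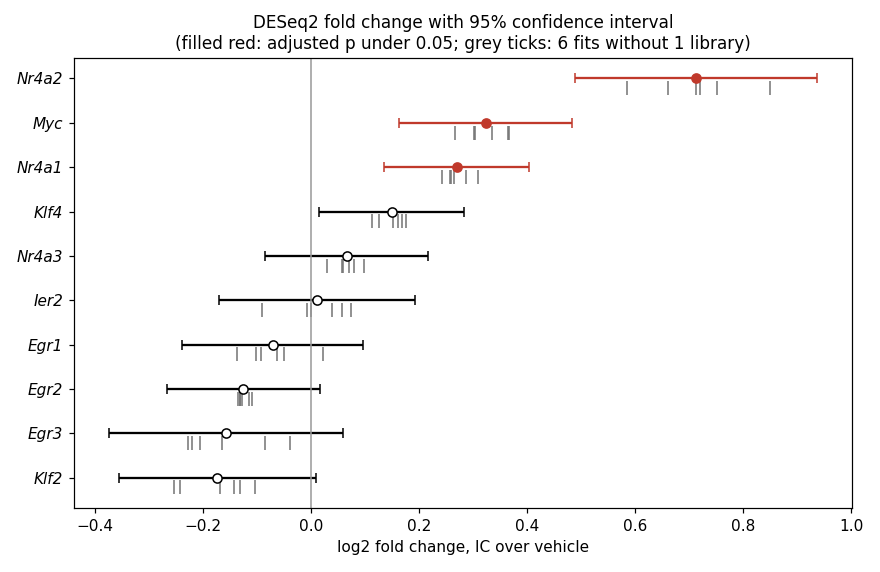
Log2 fold change of IC over vehicle by DESeq2 with its 95% confidence interval for each gene, and grey ticks for the 6 fits that each left out 1 library. Filled red points are the called genes Nr4a2, Myc and Nr4a1, whose 6 ticks all lie above 0, while the ticks of Egr1 and Ier2 fall on both sides of 0.

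A list of 31 other immediate early genes was read from the same fit. DESeq2 called 4 of them higher, 1 lower and 26 not at all. Their median log2 fold change was 0.09, and the groups did not overlap for 8 higher and 3 lower genes. Without vehicle replicate 1 the called genes were 8 in place of 5. Over all tested genes DESeq2 called 2.1%, and the groups did not overlap for 15.8%. Among genes averaging 5000 or more, a level that not all of the 31 reached, these shares were 6.47% and 24.7%. The edgeR and limma-voom tests called none of the 31, of which 10 had an unadjusted p under 0.05 by edgeR and 12 by DESeq2.

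Ier3, which encodes an inhibitor of cell death, rose most among the called genes, with 9742 to 11351 normalized counts after vehicle and 13388 to 15927 after IC, a log2 fold change of 0.44 (DESeq2 adjusted p 0.000342). Sik1, a salt-inducible kinase gene that cAMP switches on, had 17806 to 19323 after vehicle and 21681 to 24772 after IC, a log2 fold change of 0.33 (DESeq2 adjusted p 0.00166). The AP-1 gene Fosb had 285170 to 301370 after vehicle and 338690 to 368880 after IC, a log2 fold change of 0.28 (DESeq2 adjusted p 0.00350). Csrnp1, a nuclear factor gene, showed a log2 fold change of 0.24 (DESeq2 adjusted p 0.0495). The gene called lower was Klf6, a relative of Klf2 and Klf4, with 23187 to 23631 after IC and 28138 to 29677 after vehicle, a log2 fold change of -0.30 (DESeq2 adjusted p 0.000963).

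Fos and Jun themselves did not pass. Fos showed a log2 fold change of 0.05 (DESeq2 adjusted p 0.899) and Jun of -0.06 (0.896). Egr4, the remaining Egr gene, was near the floor, with 0 to 37.7 normalized counts, and DESeq2 gave it no adjusted p. Among 12 other Klf genes, Klf6 and Klf9 were called lower and none higher, where 1.07% of all tested genes were called lower. Klf9, which also responds to glucocorticoids, showed a log2 fold change of -0.31 (DESeq2 adjusted p 0.00436). Neither edgeR nor limma-voom called any of the 12.

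**Figure D4:**
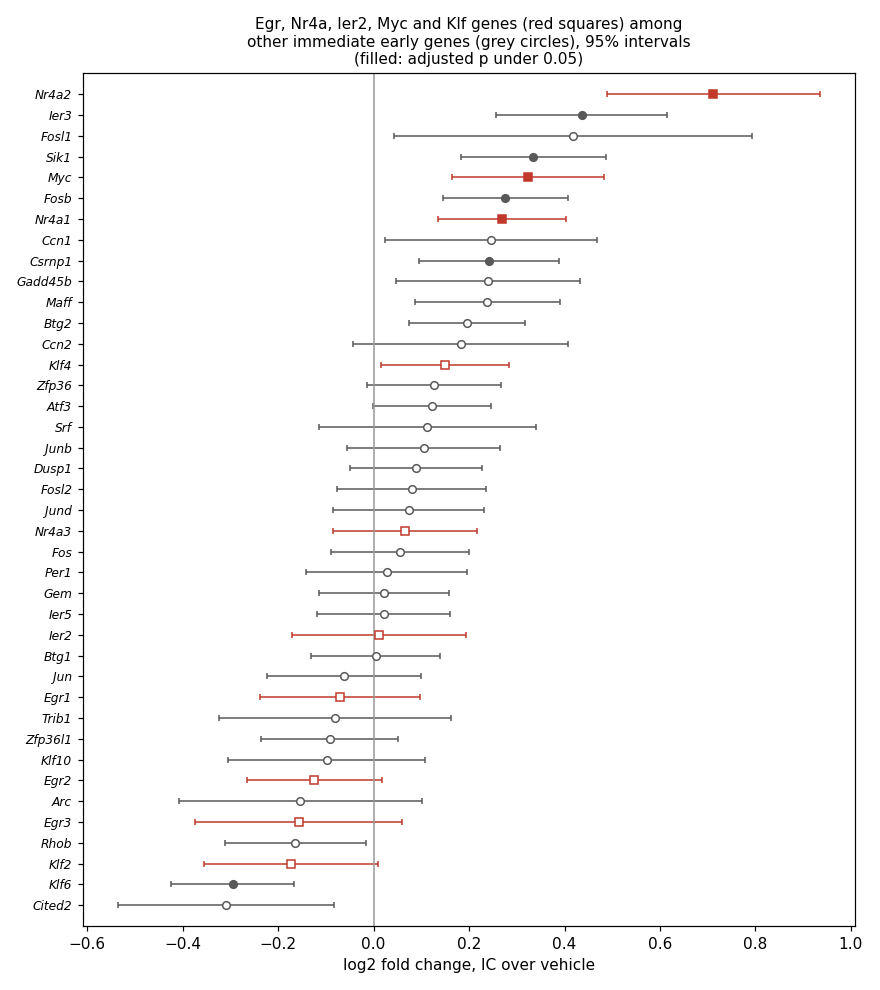
Log2 fold changes of IC over vehicle with 95% intervals for the 10 genes (red squares) and 30 other immediate early genes whose normalized counts averaged 100 or more (grey circles), in order of size; filled symbols were called by DESeq2. Nr4a2 stands at the top, the filled symbols higher after IC are Nr4a2, Ier3, Sik1, Myc, Fosb, Nr4a1 and Csrnp1, and Klf6 is the one filled symbol that is lower.

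The kinases and factors upstream of these genes were followed at the level of their transcripts. DESeq2 called 2.1% of all tested genes. Of 21 genes of the SRF, ERK, CREB and MEF2 routes it called 1, Elk3, a partner of serum response factor that often represses. It was lower after IC, with 1745 to 1786 normalized counts against 2050 to 2396, a log2 fold change of -0.36 (DESeq2 adjusted p 0.0310). Neither edgeR nor limma-voom called any gene of this list. In DESeq2 no gene of it was called with the replicate block, with 1 surrogate variable or in 5 of the 6 fits without 1 library, whereas 2 were called without vehicle replicate 1. Of 14 binding partners and corepressors none was called by DESeq2, edgeR or limma-voom, and none had an unadjusted p under 0.05 by DESeq2 or edgeR. Nearest were Mga (log2 fold change -0.12, adjusted p 0.533 by DESeq2) and Rxrg (-0.51, 0.559). Nab2, the Egr-induced corepressor, had 2316 to 2477 after IC and 2402 to 2488 after vehicle, with a log2 fold change of -0.03.

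Genes described as targets were not called with all 6 libraries in DESeq2, apart from 1 Myc target with 1 surrogate variable. Without 1 library, 1 Egr target was called when vehicle replicate 1 or 3 was left out, 1 Myc target without vehicle replicate 2 and 1 target of Klf2 and Klf4 without vehicle replicate 1. None of 14 Egr targets passed by DESeq2, edgeR or limma-voom, although 3 had an unadjusted p under 0.05 by DESeq2 and 3 by edgeR. The leading genes were Gadd45b (log2 fold change 0.24, adjusted p 0.234 by DESeq2), a stress gene, and Cd44 (0.25, 0.242), the hyaluronan receptor gene. The median over the Egr targets was 0.007, with 7 of 14 above 0. None of 30 Myc targets passed by DESeq2, edgeR or limma-voom, and 2 had an unadjusted p under 0.05 by DESeq2 and 3 by edgeR. Nop2, which encodes a ribosomal RNA methyltransferase, had 2411 to 2519 normalized counts after IC and 1884 to 2067 after vehicle, with a log2 fold change of 0.29 (DESeq2 adjusted p 0.0842). Cad, of pyrimidine synthesis, had 0.32 and 0.159. The median over the Myc targets was 0.05, with 19 of 30 above 0.

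Of 6 targets ascribed to Klf2 and Klf4 none passed by the 3 tests, and 1 had an unadjusted p under 0.05 by DESeq2 and 1 by edgeR. Thbd, the thrombomodulin gene, showed a log2 fold change of -0.29 (adjusted p 0.190 by DESeq2) and Nos3, the endothelial nitric oxide synthase gene, of -0.42 (0.475).

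A list of 9 heat shock genes was followed because enzymatic isolation is known to raise them too. None was called by DESeq2, edgeR or limma-voom, and 2 had an unadjusted p under 0.05 by DESeq2 and 1 by edgeR. Their summed level was 3328 to 3425 CPM after IC and 3364 to 3601 CPM after vehicle, and their median log2 fold change was -0.04. Hspa1a had -0.23 (adjusted p 0.282 by DESeq2) and Hsp90aa1 had -0.15 (0.413), both below 0.

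Several marker lists held called genes, where DESeq2 called 2.1% of all tested genes and 6.47% of those averaging 5000 or more. Myf5 (log2 fold change -2.08, adjusted p 0.000122 by DESeq2) and Chodl (-0.57, 0.00129) led the 6 satellite cell markers, of which 2 were called. Of 9 skeletal muscle markers 3 were called, Myh1 (-2.96, 0.00311), Ttn (-1.20, 0.000392) and Neb (-1.17, 0.0496). Among 7 mural markers Myh11 (-0.96, 0.0131) was called. Among the fibroblast markers Prg4, which encodes lubricin, was higher (0.94, 0.0103), while Lum (-0.36, 0.00250) and Clic5 (-0.68, 0.000825) were lower. Of the 10 fibroblast markers 2 had a log2 fold change above 0, and their median was -0.16. Acan (1.34, 0.00290) was the called gene of 6 tested chondrocyte markers, of which 2 had a log2 fold change above 0 and whose median was -0.19. Col2a1 was lower in every IC library without being called (-0.75, DESeq2 adjusted p 0.107). The edgeR test called no gene of these marker lists, and limma-voom called 1 fibroblast and 1 endothelial marker. Across the fits without 1 library the DESeq2 calls ran from 1 to 4 satellite cell, 0 to 4 skeletal muscle, 0 to 3 mural, 1 to 8 fibroblast and 0 to 2 chondrocyte markers. The 8 fibroblast calls came without vehicle replicate 1, and the 0 skeletal muscle calls without vehicle replicate 2. Of 4 tested macrophage markers and 7 Schwann cell markers none was called by the 3 tests or had an unadjusted p under 0.05 by DESeq2 or edgeR. Those with the smallest p had log2 fold changes of -0.25 for Lyve1, -0.36 for Lyz2, -0.37 for S100b and -0.28 for Cdh19. Log2 fold changes were above 0 for 2 of the 4 macrophage markers and 3 of the 7 Schwann cell markers. The medians were -0.09 and -0.02. Cd79a was the single lymphocyte marker tested (-0.38, DESeq2 adjusted p 0.836). The satellite cell sum was lower in every library where Nr4a2, Nr4a1 and Myc were higher, and the part of these cells in those values was not tested.

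Nr4a2 was the only one of the 10 genes whose values spanned at least 2-fold over the 6 libraries, 2.15-fold from vehicle replicate 2 to IC replicate 3. The genes whose centred log2 values were nearest to it were Chek2, Mfsd7a and Gm20705, at root mean square differences of 0.0504, 0.0952 and 0.0997 over 6 libraries. Chek2, a DNA damage kinase gene, was at a far lower level, 131 to 164 normalized counts after IC and 76.5 to 104.6 after vehicle. Mfsd7a, a transporter gene, had 1508 to 1618 after IC and 864 to 1034 after vehicle. With 6 libraries in 2 groups such nearness is a description of the ranking of libraries.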

How the data were processed

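The authors deposited raw counts of reads per gene symbol, which per the labels and the study's methods were made by Trim Galore, FastQC, HISAT2 (mm10) and featureCounts. Versions, annotation and the strand setting are not given in the sources used here. All 6 per-sample tables equal their columns in the combined table. The labels and the methods name different total RNA kits. Batch removal with sva is mentioned in the methods without details, and the labels give no batch.

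Genes reaching 10 counts in 3 or more libraries went into the Wald test of DESeq2 (version 1.42.0, default settings, treatment as the only term), with calls made below 0.05 after Benjamini-Hochberg adjustment over all tested genes. DESeq2 gave no adjusted p to 3870 genes. Normalized counts are counts divided by size factors, fold changes are unshrunken, and intervals are Wald intervals. Alternatives were edgeR (4.0.16) and limma-voom (3.58.1), TMM and total-count scaling, no count filter, no independent filtering, a replicate block, 1 surrogate variable (sva 3.50.0) and each library left out. TPM used exon union lengths of 23890 matched symbols (98.1%). The tests were checked on simulated counts.

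The genes and lists were chosen with earlier results of these data known. Named genes are the 10 genes and, of each list, the called genes or else the 2 with the smallest p, with any others chosen after their values were seen. Libraries of a group differed beyond sampling noise (chi-square per degree of freedom 16.05 to 76.7). Replicate numbers did not pair them, with correlations of deviations of -0.0918, -0.164 and 0.025.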

Additional observations from a re-analysis of the deposited data

How the results depend on the processing

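The choice of test moved the results most. In place of 419 genes called by DESeq2 (205 higher, 214 lower), edgeR called 37 (12 and 25) and limma-voom 62 (25 and 37). Of the 10 genes, edgeR called 0 and limma-voom 1, Nr4a2, in place of 3. Other scalings, no filter, no independent filtering, 1 surrogate variable and DESeq2 with the replicate block kept the same 3. Without one library the genes called ran from 281 to 677, from 123 to 320 higher and from 127 to 357 lower, and the genes of the 10 called from 2 to 3. The highest counts came without vehicle replicate 1. Same-numbered libraries did not deviate together, and with the replicate block edgeR called 22 genes (7 higher, 15 lower) and 0 of the 10. Myc lost its call without vehicle replicate 3. The log2 fold change of Egr1 turned from -0.07 to 0.012 with 1 surrogate variable and ran from -0.14 to 0.023 without one library, and that of Ier2, 0.011, ran from -0.091 to 0.074 and was also below 0, at -0.0068, without IC replicate 2. The other 8 genes kept their direction under every alternative run. The cause of these changes was not tested. With 3 libraries a group, changes of the size seen for Klf4 and Egr2 were not called.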
